A study of Mus musculus with 2 samples.

Results

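The genes described here are 47 genes of DNA replication and S phase, out of 55363 gene symbols measured in the uterus of Mettl14 f/f and Mettl14 d/d mice. They were taken as a list by symbol, from the origin-binding proteins to the chromatin assembly factors, and all 47 were found and passed the filter of 1 FPKM in at least one library, as 16263 genes did. FPKM stands for fragments per kilobase of gene model, normalised to library size, so levels of different genes can be set side by side per length. Whole uterus was taken on gestational day 4 from females of 6 to 8 weeks mated to fertile males, the plug being found on day 1. Both groups share this mating, tissue and day and differ in the Mettl14 genotype, f/f in the control group and d/d in the other. In the usual notation f is a floxed and d a deleted allele; which Cre line was used, and whether animals were pooled, is not given in the sources used here. Each genotype had 1 library, so the values carry no replicate error and no test was possible, and "higher" and "lower" compare these libraries, not the genotypes.

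DNA replication begins when the origin recognition complex, with Cdc6 and Cdt1, loads the MCM helicase ring onto DNA. In S phase the ring is switched on by Cdc45 and GINS, primase and DNA polymerase alpha start each strand, and polymerases delta and epsilon extend them on the PCNA clamp. Many of these genes are transcribed as cells leave G1, when E2F factors are freed from the RB proteins and cyclin E is made. In the mouse uterus before implantation, proliferation moves under progesterone from the epithelium to the stroma, and replication genes are made in the cells that are cycling.

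Nearly all of the listed replication genes had lower RNA levels in the d/d library, most of them moderately. Of the 47 genes, 45 had a log2 ratio (d/d to f/f) below 0, where 50.8% of all genes did; ratios were taken on (FPKM + 1) throughout. The median ratio was -0.60, with quartiles of -0.83 and -0.49, beside a median of -0.01 over all genes. By a size rule of 1.5-fold, 27 were lower (57.4%) and 1 was higher, against 17.8% and 18.8% of all genes. By a rule of 2-fold, 7 were lower (14.9%) and none was higher, against 8.28% and 10.2% of all genes. That count fell to 3 of 34 (8.82%), near the share of all genes, when genes sharing exon bases with another protein-coding gene were left out. Among protein-coding genes alone 51.1% were below 0, 7.92% and 9.45% were at least 2-fold lower and higher, and 17.8% and 18.1% were so by 1.5-fold. Summed over the list, FPKM was 1711 in f/f against 1116 in d/d, or 65.2% of the f/f sum. Since this is bulk tissue, fewer cells in S phase and less of these RNAs per cell cannot be told apart.

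**Figure D1:**
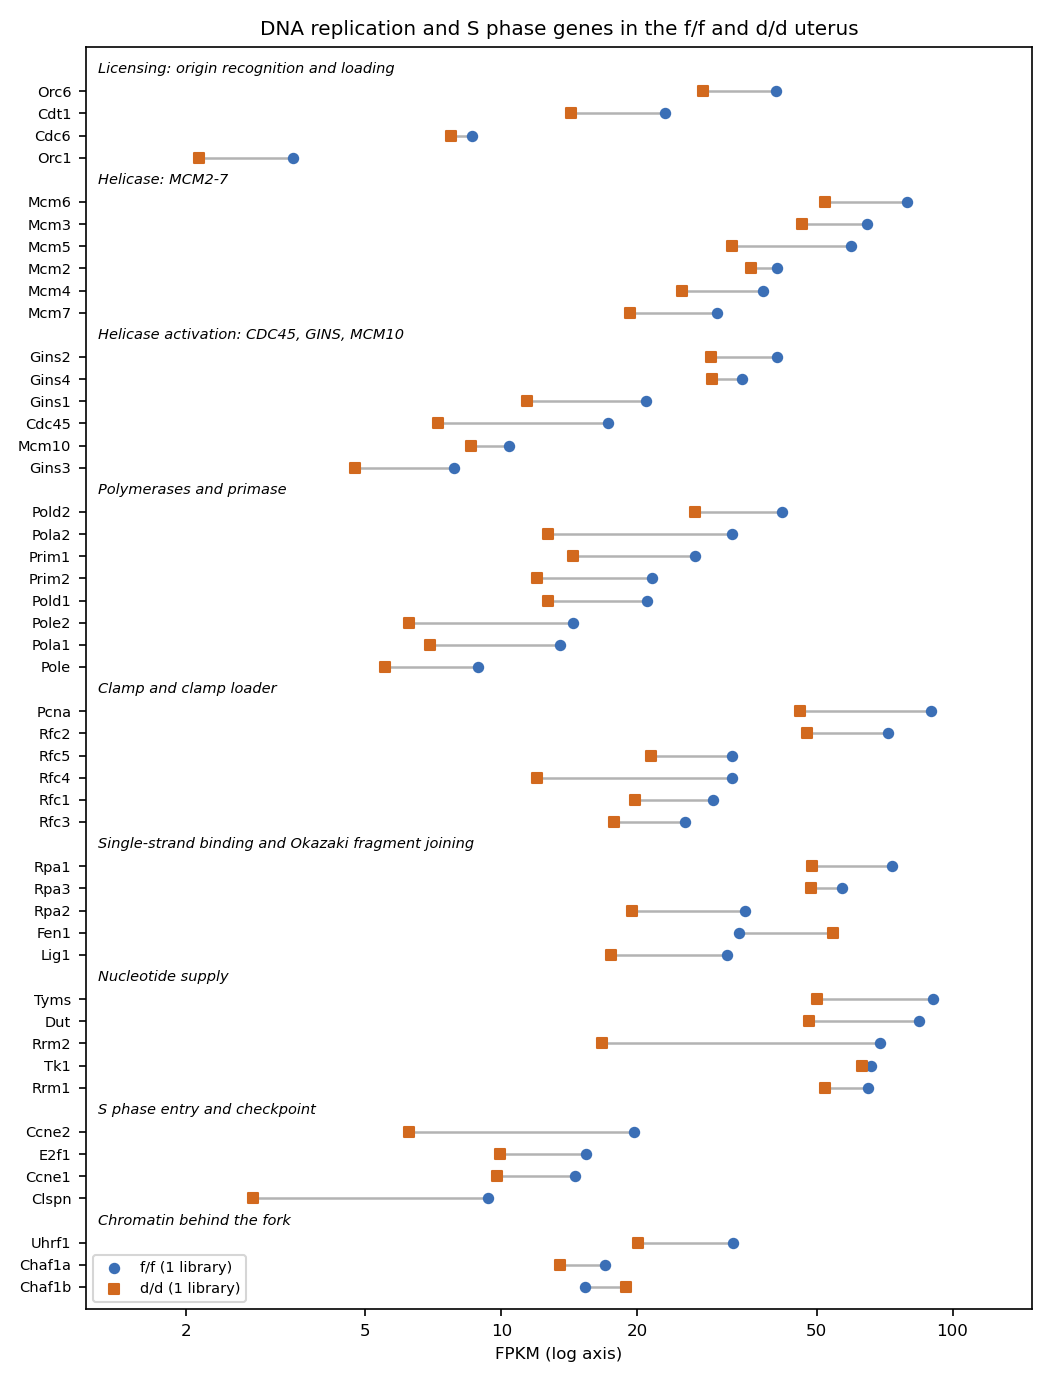
FPKM of each replication gene (log axis) in the f/f library (blue circles) and the d/d library (orange squares), grouped by role, with a grey line joining both values of a gene. The square lies left of the circle for all genes but Fen1 and Chaf1b, and the longest leftward lines are those of Rrm2, Clspn and Ccne2.

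The genes kept much of their order of abundance, as all genes did. Levels in the f/f and d/d libraries correlated with a Spearman rho of 0.90 over the 47 genes and of 0.88 over all 16263, a description across genes and not a test. The ratio had no relation to abundance (rho 0.02 between f/f level and log2 ratio). The SD of the ratios was 0.45 over the list and 0.98 over all genes. These SDs were not matched for abundance, the median f/f level being 32.4 FPKM for the list and 13.2 for all genes. In all, 27 of the 47 ratios lay between -0.5 and -1, and 11 lay between 0 and -0.5.

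**Figure D2:**
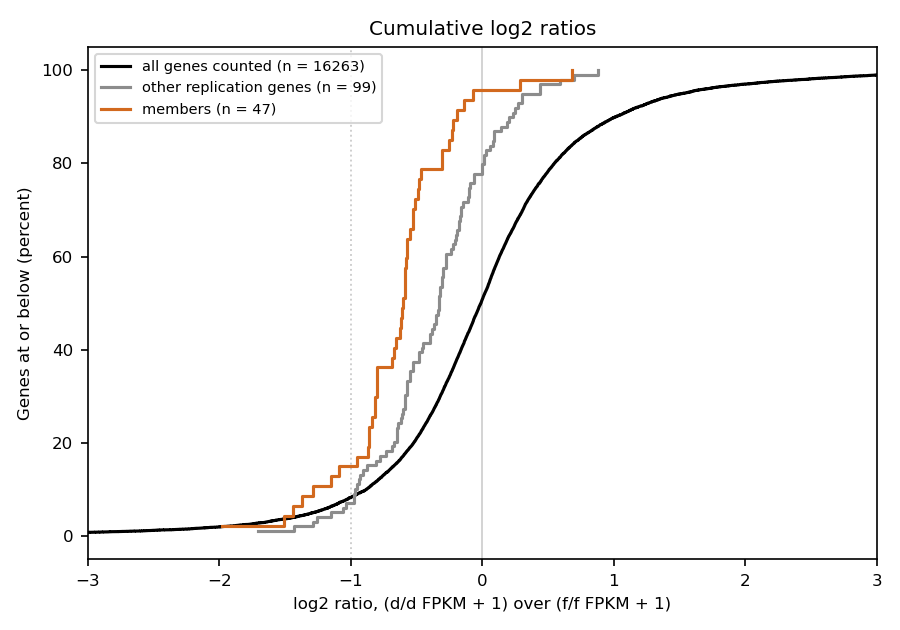
Cumulative percentage of genes (vertical axis) at or below each log2 ratio (horizontal axis, drawn from -3 to 3) for the 47 replication genes, 99 other replication genes and the 16263 genes counted. The curve of the 47 genes runs left of the others from about -1 upward, and near the left end the curves lie close together.

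The libraries differed widely outside this list too. Mettl14, the RNA-binding partner of the m6A methyltransferase Mettl3, was 13.6 FPKM in f/f against 3.21 in d/d. Depth was approximated from the steps between low values at 17750000 fragments in f/f against 20850000 in d/d, at which 1 FPKM over a transcript of 2000 nt stands for 35.5 and 41.7 fragments. The least abundant replication gene, Orc1, would then rest on roughly 185 and 135 fragments. A set of 14 reference genes had a median log2 ratio of -0.09, with a range from -0.40 to 0.96. None was past the 2-fold rule, though Gusb at 0.96 was just short of it.

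The promoters of the list are shown first because they hold a feature that the choice of genes did not directly use. Many of these genes are transcribed when E2F factors are freed, as described above. The share with E2F letters is therefore not independent of the choice. RefSeq promoter windows on GRCm38.p6, from 250 bases before to 50 after the transcript start, were present for 39 of the 47 genes, and 5 of these had more than 1 window. E2F factors bind an 8-base element, searched as the letters TTTCCCGC, TTTGGCGC, TTTCGCGC and TTTGCCGC on both strands. At least one match stood in the windows of 15 of the 39 genes (38.5%), beside 2.6% of all 27025 genes in the table and 4.49% of the 11251 that reached 1 FPKM here. The 15 were Orc1, Cdc6, Cdt1, Mcm3, Mcm5, Mcm6, Mcm7, Gins3, Pola1, Pold1, Pole2, Rfc3, Lig1, Clspn and Uhrf1. Of their 21 matches, 12 began before the start base and 9 at or after it. A match is a run of letters and not a bound site, and related letters outside the search were not counted.

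Stretches of 100 bases upstream of the RefSeq start are given for 6 of these genes, from loading factors to the primase-bound polymerase, to show how the element sits. Each reads 5′ to 3′ on the gene's strand, with the matched letters in capitals; where matches overlap on the opposite strands, as in Mcm5 and Mcm6, the capitals run together. Rrm2, the gene with the lowest ratio, had no match and is shown with its CCAAT box in capitals. By the GENCODE M21 gene positions used below, the stretches of Cdc6 and Gins3 lie inside the gene. Those of Orc1 and Rrm2 run past the gene start, and the Orc1 match lies after it.
Orc1 (chr4:108579354-108579453, plus strand): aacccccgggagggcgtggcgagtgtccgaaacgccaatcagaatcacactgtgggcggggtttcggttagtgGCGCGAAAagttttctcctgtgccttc
Cdc6 (chr11:98907967-98908066, plus strand): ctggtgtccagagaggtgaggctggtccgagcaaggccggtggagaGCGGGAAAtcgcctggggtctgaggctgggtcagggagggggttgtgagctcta
Mcm5 (chr8:75109312-75109411, plus strand): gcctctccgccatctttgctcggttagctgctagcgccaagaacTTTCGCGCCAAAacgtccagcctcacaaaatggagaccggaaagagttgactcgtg
Mcm6 (chr1:128359731-128359830, minus strand): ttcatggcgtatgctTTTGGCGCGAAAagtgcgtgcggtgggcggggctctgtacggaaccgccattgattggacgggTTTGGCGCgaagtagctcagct
Gins3 (chr8:95633459-95633558, plus strand): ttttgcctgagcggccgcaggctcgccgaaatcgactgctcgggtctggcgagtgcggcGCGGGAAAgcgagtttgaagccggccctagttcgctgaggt
Pola1 (chrX:93632240-93632339, minus strand): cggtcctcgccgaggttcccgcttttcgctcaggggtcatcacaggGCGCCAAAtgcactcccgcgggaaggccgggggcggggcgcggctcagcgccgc
Rrm2 (chr12:24708154-24708253, plus strand): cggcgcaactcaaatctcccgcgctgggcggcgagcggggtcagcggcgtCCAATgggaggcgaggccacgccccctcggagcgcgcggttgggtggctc

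Ratios of genes with and without these letters overlapped. The 15 genes with a match had a median log2 ratio of -0.66, from -1.44 to -0.14, and the 24 without had -0.58, from -1.98 to 0.68. The CCAAT box, an element bound by NF-Y and searched as CCAAT on both strands, stood in 24 of the 39 genes (61.5%), beside 41.1% of all genes and 42.5% of those at 1 FPKM. Genes with and without it had medians of -0.60 and -0.66. The CHR letters TTTGAA and TTCGAA, known from genes of G2 and mitosis, stood in 7 of 39 (17.9%), beside 21.7% of all genes and 16.9% of those at 1 FPKM.

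**Figure D3:**
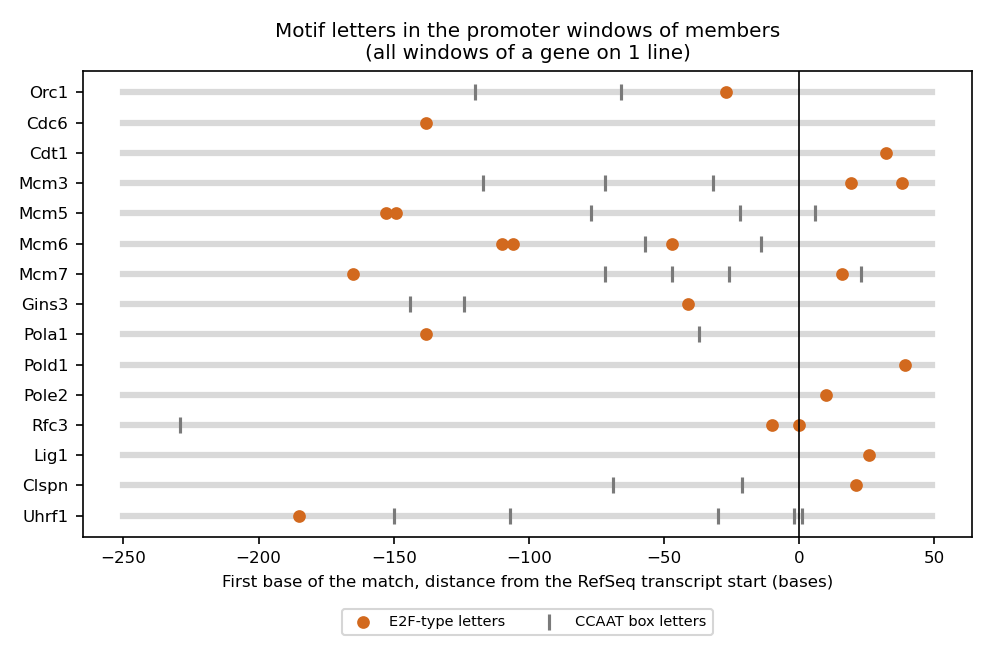
Position of matched letters, as the distance in bases of the first matched base from the RefSeq transcript start, for the 15 replication genes with an E2F match (orange points) and their CCAAT boxes (grey bars). Grey lines span the searched window from 250 before to 50 after the start, and 12 of the 21 orange points lie left of the start.

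Genes of origin loading differed moderately. Orc1, the ATPase subunit that helps bind origins, was 3.46 FPKM in f/f against 2.14 in d/d, and Orc6 was 40.7 and 28. Cdt1, which brings the helicase to origins, was 23.1 FPKM in f/f against 14.3 in d/d, a log2 ratio of -0.66. Its loading partner Cdc6 was 8.59 and 7.72 FPKM, a ratio of -0.14, among the smallest differences of the list. None of the 4 reached 2-fold.

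All 6 subunits of the MCM2-7 ring, the replicative helicase, were lower in d/d, by unequal amounts. Mcm5 stood lowest relative to f/f, at 59.6 FPKM in f/f against 32.5 in d/d, a log2 ratio of -0.86. Mcm2 was nearly level, at 40.8 and 35.7 FPKM, a ratio of -0.19. Mcm6, the most abundant subunit, was 79.2 and 52.2 FPKM. The remaining subunits lay between these: Mcm3 was 64.5 and 46.3 FPKM, Mcm4 was 38 and 25.2, and Mcm7 was 30 and 19.3. Although the ring holds 1 copy of each protein, the highest subunit RNA exceeded the lowest 2.64-fold in f/f and 2.71-fold in d/d.

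Among the factors that switch the ring on, Cdc45 stood apart by size. Cdc45, which joins MCM and GINS in the active helicase, was 17.2 FPKM in f/f against 7.23 in d/d, or 42% of the f/f level, a log2 ratio of -1.15. In GENCODE M21 on GRCm38, from which all gene positions here come, it lies on chromosome 16, minus strand, from 18780447 to 18811987. The GINS complex has 4 subunits, and their ratios spread from -0.82 to -0.22. Gins1 was 20.9 FPKM in f/f against 11.4 in d/d, Gins3 7.86 and 4.74, Gins2 40.9 and 29.1, and Gins4 34.2 and 29.3. Mcm10, which helps start the fork, was 10.4 and 8.57 FPKM, a ratio of -0.25.

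Polymerase and primase genes were lower as a whole group, with all 8 past the 1.5-fold rule and a median log2 ratio of -0.83. Of all genes, 17.8% were lower by that rule. With ratios centred on the reference genes, Pole at -0.52 and Pold2 at -0.53 fell short of it. In the primase complex, the accessory subunit Pola2 was 32.4 FPKM in f/f against 12.7 in d/d, a ratio of -1.29, and 809 of the 16263 genes had a ratio as low or lower. The catalytic subunit of polymerase alpha, Pola1, was 13.5 and 6.96 FPKM, a ratio of -0.87. The primase subunits Prim1 and Prim2 were close to it, at 26.8 and 14.4 FPKM and at 21.6 and 12. Polymerase epsilon, which extends the leading strand, had its accessory subunit Pole2 at 14.4 FPKM in f/f against 6.23 in d/d, a ratio of -1.09, and its catalytic subunit Pole at 8.9 and 5.52, a ratio of -0.60. The catalytic subunit Pold1 of polymerase delta, the lagging-strand enzyme, was 21 and 12.7 FPKM, and its partner Pold2 was 41.9 and 26.9. Pola2 lies on chromosome 19, minus strand, from 5940542 to 5964202, and Pole2 on chromosome 12, minus strand, from 69201773 to 69228195.

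The clamp and its loader showed one subunit well below its partners. Pcna, the sliding clamp that tethers polymerases to DNA, was 89.6 FPKM in f/f against 46 in d/d, or 51.3% of the f/f level, just short of the 2-fold rule at -0.95. A more abundant pseudogene copy of Pcna, described with the near copies, makes that value uncertain. Rfc4, a small subunit of the 5-part clamp loader, was 32.5 FPKM in f/f against 12 in d/d, a ratio of -1.37. Its partner Rfc5 had the same f/f level of 32.5 but 21.5 in d/d. The large subunit Rfc1 was 29.5 and 19.8 FPKM, Rfc2 was 71.8 and 47.5, and Rfc3 was 25.5 and 17.8, so that the loader subunits other than Rfc4 had ratios from -0.59 to -0.49. Rfc4 lies on chromosome 16, minus strand, from 23113943 to 23127737. It shares 194 exon bases with Eif4a2 on the opposite strand, which was 292 FPKM in f/f against 290 in d/d.

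Lagging-strand processing held the one gene that was past the 1.5-fold rule and higher in d/d. Fen1, the flap endonuclease that trims Okazaki fragments, was 33.6 FPKM in f/f against 54.3 in d/d, 162% of the f/f level and a log2 ratio of 0.68. Lig1, the ligase that seals the trimmed fragments, was lower at 31.6 and 17.5 FPKM, a ratio of -0.82. These partners in one reaction thus lay on opposite sides of 0. Fen1 lies on chromosome 19, minus strand, from 10199132 to 10204169 and shares 130 exon bases with the oppositely transcribed Tmem258, which was 197 FPKM in f/f against 199 in d/d. The single-strand binding complex RPA was lower in its subunits Rpa1, at 73.6 and 48.8 FPKM, and Rpa2, at 34.6 and 19.5, and close to level in Rpa3, at 57 and 48.6.

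Nucleotide supply spanned the widest range of ratios of the 9 roles. Ribonucleotide reductase makes deoxynucleotides from a large subunit, Rrm1, and a small subunit made in S phase, Rrm2. Rrm2 was 68.9 FPKM in f/f against 16.7 in d/d, 24.2% of the f/f level, and its log2 ratio of -1.98 was the lowest of the list, with 320 of 16263 genes as low or lower, itself included. Rrm1 was 65 and 52.2 FPKM, so the ratio of Rrm1 to Rrm2 was 0.945 in f/f against 3.13 in d/d. Tyms, the thymidylate synthase, was 90.6 and 50.1 FPKM, and Dut, which keeps uracil out of DNA, was 84.4 and 48.1. Tk1, the salvage thymidine kinase, was almost the same in both libraries at 66.1 and 63.1 FPKM, a ratio of -0.07. A pseudogene copy, described with the near copies, makes that value uncertain. Rrm2 lies on chromosome 12, plus strand, from 24708241 to 24714146.

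Genes of S phase entry and the fork checkpoint had the lowest median of the roles, -1.01 over 4 genes. Ccne2, one of the E-type cyclins that drive Cdk2 at the start of S phase, was 19.7 FPKM in f/f against 6.25 in d/d, a ratio of -1.51. Its paralog Ccne1 was 14.6 and 9.76 FPKM, a ratio of -0.53, so that Ccne1 was below Ccne2 in f/f and above it in d/d. Clspn, the adaptor claspin that passes the signal of a stalled fork to Chek1, was 9.32 FPKM in f/f against 2.81 in d/d, a ratio of -1.44. E2f1, the activator of S phase genes, was 15.4 and 9.94 FPKM, a ratio of -0.59, near the median of the list. Ccne2 lies on chromosome 4, plus strand, from 11191351 to 11204779 and Clspn on that strand and chromosome from 126556935 to 126593903. Ccne2 shares 609 exon bases with Ints8 on the opposite strand, at 19.7 and 14.6 FPKM.

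Chromatin factors that work behind the fork differed from one another. Uhrf1, which guides Dnmt1 to newly made DNA, was 32.6 FPKM in f/f against 20.1 in d/d, a ratio of -0.67. The chromatin assembly factor CAF-1 loads histones through its subunits Chaf1a and Chaf1b. Chaf1a was 17 and 13.5 FPKM, whereas Chaf1b was 15.3 in f/f against 18.9 in d/d, a ratio of 0.29 and the other value of the list above 0. Chaf1b lies on chromosome 16, plus strand, from 93883901 to 93906115.

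Overlapping genes bear on the genes past 2-fold. In the GENCODE M21 annotation 13 of the 47 genes share exon bases with another protein-coding gene, 12 of them with one on the opposite strand, and whether the authors' estimate used strand is not given in the sources used here. Cdc45, Pole2, Rfc4, Ccne2 and Fen1 are among the 13, and Rrm2, Pola2, Clspn and Chaf1b are not. Of the 34 genes without such an overlap, 33 were below 0 with a median of -0.61. Of the 7 genes past 2-fold, 4 overlap, and in each case the partner's ratio was nearer to 0 than the gene's own. Cdc45 shares 209 exon bases with Ufd1 on the opposite strand, at 39 and 37.6 FPKM, a ratio of -0.05. Pole2 shares 245 with Gm49384 on the same strand, at 4.22 and 2.38 FPKM, a ratio of -0.62. The partners of Rfc4 and Ccne2, Eif4a2 and Ints8, had ratios of -0.01 and -0.41. The largest overlaps belong to genes short of 2-fold. Chaf1a shares 4648 of its 8854 exon bases with Ubxn6 on the opposite strand, at 39.5 and 22.9 FPKM. Gins2 shares 2758 of 4097 with Gse1, also on the opposite strand, at 12 and 13.9 FPKM. The part of these overlaps in the values was not tested.

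Near copies make a few single values uncertain, since the authors' estimate had to share fragments between copies. Processed pseudogenes at 1 FPKM or more that share at least 100 words of 31 bases with a replication gene were found for 5 of the 47. Pcna-ps2, the copy of Pcna, was 186 FPKM in f/f and 90 in the other library, above Pcna itself in both. Gm6091, a gene model of 165 nt that copies part of Tk1, was 832 and 2474 FPKM, so the nearly level value of Tk1 is among the least certain of the list. The copies of Mcm7, Uhrf1 and Rpa3, named Gm5487, Gm5648 and Gm6195, were lower than the genes themselves, at 6.64 and 4.17, 8.28 and 5.53, and 6.44 and 3.91 FPKM. None of the 7 genes past 2-fold is among these 5, which count processed pseudogenes only. Of other gene types, Gm17494 shares 117 such words with Pola2 and was 34.9 FPKM in f/f against 33.4 in d/d. Dnajb14 shares 101 with Pola2 and was 4.47 and 4.64 FPKM.

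**Figure D4:**
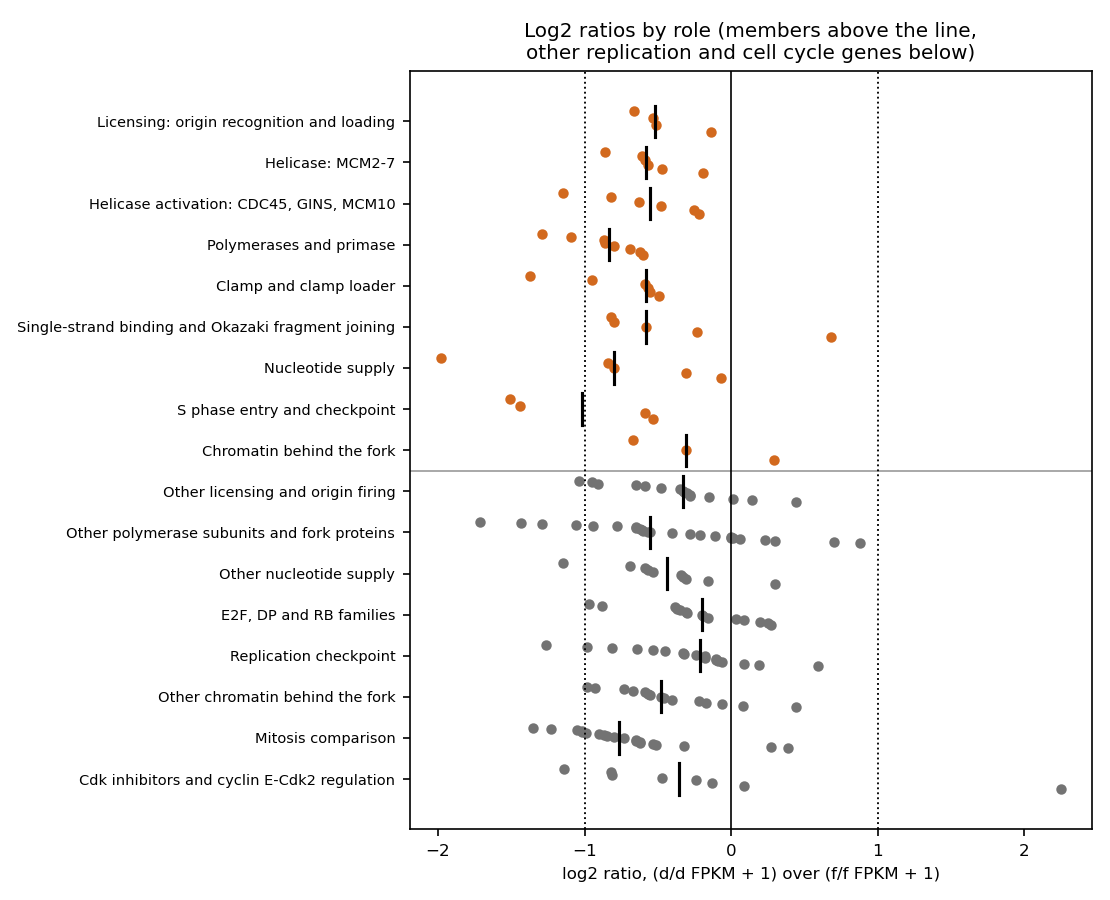
Log2 ratios of (FPKM + 1), d/d over f/f, for each replication gene by role (orange, above the grey line) and for the other replication and cell cycle genes by list (grey, below it); black bars are medians and dotted lines mark 2-fold. Orange points cluster between -0.5 and -1 with Fen1 as the far right point. Except for the mitosis genes, the grey lists have medians nearer to 0 than the -0.60 of all orange points. That of the other polymerase subunits and fork proteins, at -0.55, is close to it and lower than the medians of some roles.

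Replication genes outside the 47 were also mostly below 0, with a median nearer to it. Over 6 further lists with 99 genes, 78 were below 0 and the median log2 ratio was -0.33. At the 2-fold rule 7 were lower and none was higher, a share of 7.07%, near that of all genes, and at 1.5-fold 30 were lower and 3 higher. In the list of licensing and origin firing, Orc3, an origin recognition subunit, was the 1 of 16 past the rule, at 27.6 FPKM in f/f against 12.9 in d/d. Of 25 polymerase subunits and fork proteins, with a median of -0.55, 4 were past it. Both Dscc1 and Chtf18 belong to the alternative clamp loader used in sister chromatid cohesion, and they were 7.65 and 1.65 FPKM and 8.74 and 2.6. Pclaf, a PCNA-binding protein, was 51.6 and 20.5 FPKM, and the repair scaffold Xrcc1 was 33.2 and 15.4. Lig3, a ligase of repair and mitochondria, had the highest ratio among the 99, at 18.3 FPKM in f/f against 34.4 in d/d (named after its values were seen).

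Of 10 further genes of nucleotide supply, 9 were below 0, with a median of -0.44. Rrm2b, the p53-linked alternative to Rrm2, was 6.23 and 4.85 FPKM (named after its values were seen). Of 18 checkpoint and fork repair genes 15 were below 0, and Brca2, a factor of recombination repair, was past 2-fold at 6.69 and 2.21. None of 15 further chromatin factors was past the rule (median -0.48); the most abundant, Rbbp7, Ssrp1 and Rbbp4, were 276 and 264, 145 and 103, and 118 and 78.1 FPKM.

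In the list of E2F, DP, RB and related genes, which govern S phase transcription, 10 of 15 were below 0, none passed 2-fold, 2 were at least 1.5-fold lower and the median was -0.20. Those 2 were the atypical repressor E2f8, at 14.6 and 6.95 FPKM, and the E2F partner Tfdp2, at 14.7 and 7.54, both chosen after their values were seen. Its most abundant genes were Tfdp1, another E2F partner, at 48.9 and 37.6 FPKM, the repressor-type E2f4 at 39.8 and 31.1, and E2f6 at 21.8 and 23.3. Among regulators of cyclin E and Cdk2, the Cdk inhibitor Cdkn1a was 14.9 and 74.7 FPKM, and its relative Cdkn1c was 35.9 and 15.7. Cdk2 itself was 25.7 FPKM in f/f against 23.4 in d/d (named after its values were seen).

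Mitosis genes lay in the same range as the replication genes. Of 20 genes, 18 were below 0 and 5 were at least 2-fold lower, with a median of -0.76. Nuf2, a kinetochore protein, was 28.1 FPKM in f/f against 10.4 in d/d, and the mitotic kinesin Kif20a was 35.7 and 16.7. Top2a, which untangles DNA, Ccna2, the cyclin of S and G2, and Cdc20, an activator of mitotic exit, were also past the rule, at 110 and 46.1, 52.6 and 25.4, and 59.7 and 29 FPKM. Cenpe and Cenpf were above 0, and Mki67, the proliferation antigen, was 30.1 and 23.9 FPKM (these 3 named after their values were seen).

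Markers of stroma, muscle, endothelium and natural killer cells were lower in d/d like the list, and those of epithelium and other leukocytes were higher. All 12 endometrial stroma markers were below 0, 7 of them at least 2-fold, with a median of -1.30. Their summed level was 6559 FPKM in f/f against 4091 in d/d. The stroma ratios were uneven, from -2.47 for Hoxa10 to -0.13 for Col1a2, and Dcn, Lum and Col1a1 lay at -0.17, -0.16 and -0.29. Of all genes, 8.28% were at least 2-fold lower and 10.2% at least 2-fold higher. Endothelial markers were below 0 in 8 of 8 cases (median -1.03, sums 382 and 183), as were smooth muscle markers (median -0.80, sums 5222 and 3453). Natural killer cell markers were all past 2-fold lower, with sums of 350 and 4.8 FPKM, and Gzmc was listed at 0 in d/d. Epithelial markers went the other way, with 10 of 10 above 0, 9 of them past 2-fold, and sums of 375 and 2194. Sums were also higher in d/d for macrophages (792 and 1776), B and plasma cells (1346 and 3609) and T cells (11.6 and 59.2). For the labelled tissue, markers of epithelium, stroma, muscle and endothelium were all detected in both libraries. The part of these cell types in the ratios of the replication genes was not tested.

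**Figure D5:**
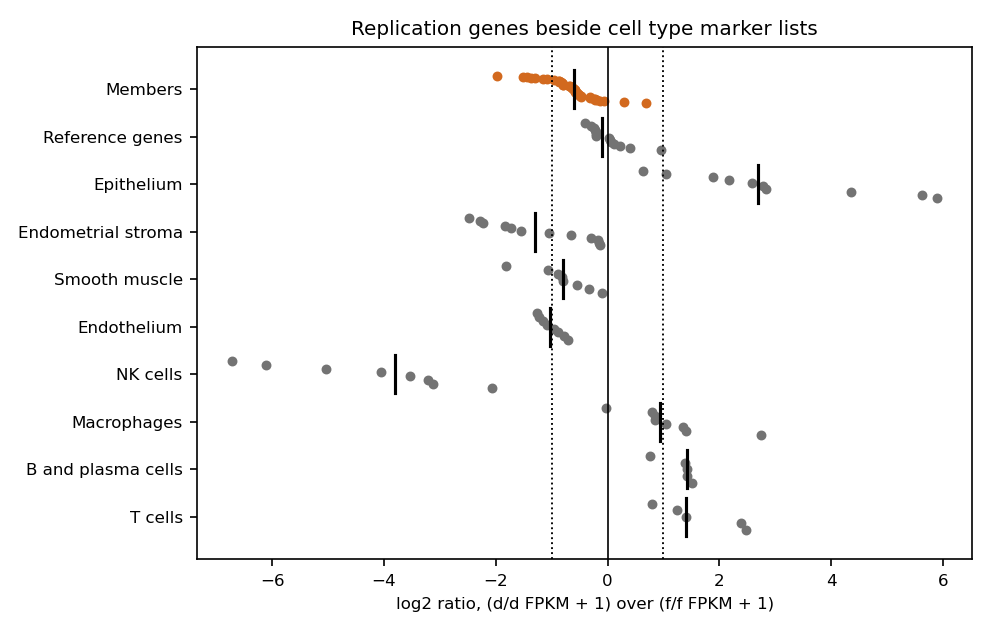
Log2 ratios of (FPKM + 1), d/d over f/f, of the 47 replication genes (orange), 14 reference genes and the cell type marker lists (grey points, genes that passed the filter), with medians as black bars and 2-fold as dotted lines. The replication genes have a median of -0.60, between the reference genes at -0.09 and the stroma markers at -1.30, and the epithelial markers lie to the right of 0.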

How the data were processed

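Values are FPKM made by the authors; HISAT2 version 2.2.1, Cufflinks version 2.2.1 and mm10 are named in the submitters' processing notes, and the deposited files give 1 FPKM per gene without counts. Per the labels' protocols, TRIzol extraction was followed by TruSeq RNA library preparation; which annotation release was used, and whether libraries were stranded, is not given in the sources used here. Both files list the same 55483 rows. Rows sharing a symbol were summed, and no replication gene had more than 1 row. Log2 ratios (d/d to f/f) were taken on (FPKM + 1), a pseudocount that understates changes of low genes, and genes at 1 FPKM or more in either library were counted. With 1 library per genotype no test was made. Depth was approximated from genes with 1 transcript of at least 2000 nt, where 75.2% of 783 low values in f/f and 71.9% of 804 in d/d lay within 0.1 of a whole fragment. Full transcript length stood in for effective length, so no count test or interval was drawn from it. Positions come from GENCODE M21 (GRCm38, the assembly of mm10), where 55137 of the gene IDs were found, and promoters from RefSeq (GRCm38.p6). Named were all 47 genes and, from each further replication list, genes past 2-fold or, where none passed, the 3 with the highest mean FPKM. A few of the genes so chosen are not reported here. The genes, lists and rules were chosen with earlier results of these data known. Near copies were sought as GENCODE transcripts of other genes sharing words of 31 bases. The ratio and the 2-fold rule were run on simulated data with large changes planted in abundant genes. That run checks the code and does not measure error in these data. A planned search of protein sequences was not run. Python 3.11.15, pandas 2.3.3, numpy 2.4.6 and scipy 1.17.1 were used.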

Additional observations from a re-analysis of the deposited data

How the results depend on the processing

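The direction of the list was kept under every one of the 11 other settings tried, of which the centring by GC content, the centring by transcript length and the omission of overlapping genes were chosen after seeing the data. The median log2 ratio of the replication genes ranged from -0.69 with upper-quartile scaling to -0.52 when centred on the reference genes. In the same order, the median over all genes was -0.10 and 0.08. The mean over the replication genes was -0.65 as reported. The count below 0 was 44 or 45 in the settings that kept all 47 genes, where Tk1 was the single gene to change sign. At least 2-fold lower were 7 genes, or 8 with upper-quartile scaling, where Pcna joined, but 3 of 34 without the genes that share exons with another protein-coding gene. Of all genes, 8.28% were so as reported and 9.34% with upper-quartile scaling. At least 1.5-fold lower were 27 genes as reported, 18 when centred on the reference genes and 34 with upper-quartile scaling. In the same order, 17.8%, 15.1% and 20.9% of all genes were so. Of 503 values of single genes under these settings, 498 lay within 0.1 of the reported log2 ratio. This agreement was partly fixed in advance. Changing the filter or omitting genes leaves a gene's ratio as it was, and centring on the reference genes shifts every ratio equally. No paired analysis was possible because each genotype has 1 library, which also leaves no replicate to omit. Low levels concern few of the genes, since 44 of the 47 genes were at 5 FPKM or more in both libraries. The 8 genes without a promoter in the table were not searched for motifs.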
